A study of Mus musculus with 6 samples.

Results

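The receptors for GM-CSF, IL-5 and IL-3 that share the common beta chain were examined in lung ILC2s, the group 2 innate lymphoid cells, by the 5 genes that encode their chains. These were *Csf2rb*, *Csf2rb2*, *Csf2ra*, *Il5ra* and *Il3ra*, taken by gene symbol from the table of estimated counts, and 4 of them were found among its 22554 genes. *Il5ra* was not analysed here. The 6 samples were ILC2s sorted as lineage-negative CD45+ CD127+ ST2+ cells from the lungs of wild-type BALB/cByJ mice, 8 weeks old by the sample labels, after 3 intranasal doses of 0.5 µg rmIL-33. All were cultured for 24 h at 50000 cells per mL with rmIL-2 and rmIL-7 at 10 ng/mL each, 3 in the presence of isotype control (numbered 16, 17 and 18) and 3 in that of CD200-Fc (numbered 35, 36 and 38). This fusion protein is the ligand of the inhibitory receptor CD200R, joined to the Fc part of an antibody. Some descriptions of the study also place rmIL-33 in such cultures, which its RNA-sequencing methods do not. The methods call the mice female, whereas 1 line of the reporting summary calls them male. Both groups thus carry the IL-33 given in vivo and the IL-2 and IL-7 of the culture, and no group without them was analysed. No source used here says which mice or cultures the 6 samples came from, so the p-values rest on a spread among 6 samples that may be no more than technical.

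Each of these receptors pairs an alpha chain, which binds its own cytokine, with a beta chain that does not bind it firmly alone but carries the signal. *Csf2rb* encodes the beta chain shared by all of them. Mice also carry *Csf2rb2*, a duplicate whose product serves the IL-3 receptor alone. The beta chain is bound by the kinase JAK2, which activates STAT5, and the family is known for the growth and survival of eosinophils, mast cells, basophils and macrophages, and IL-5 for eosinophils in particular. ILC2s are a major source of IL-5 and also make GM-CSF in the lung.

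The libraries held 20096555 to 33321709 estimated counts, with CD200-Fc replicate 36 the deepest, and 14124 genes passed the filter on low counts. All 15 ILC2 markers were detected, among them *Gata3* at 1055 to 1188 CPM (counts per 1000000 of the library size scaled by TMM), *Il7r* and *Il1rl1*, and *Cd200r1*, the receptor of CD200, stood at 182 to 213 CPM. Markers of other cells that use the common beta chain were partly present. Of the mast cell genes, *Tpsab1* reached 803 counts in a library, *Cma1* 181 and *Cpa3* 139, and *Ms4a2* had at most 5. Of the macrophage genes, *Chil3* reached 572 counts and *Lyz2* 236, while *Csf1r* and *Adgre1* had at most 18 and 5. The eosinophil gene *Ccr3* reached 267 counts and *Ear2* 1. Of the T cell genes, *Trbc2* stood at 158 to 179 CPM and *Cd3g* at 21.5 to 25.4, with *Cd4* at 0 in every library. *Epcam* stood at 24.7 to 35.3 CPM, without overlap and higher with CD200-Fc, and *Pecam1* at 18.4 to 26.3, with *Sftpc* and *Scgb1a1* at 0 in every library. Some summed marker levels moved with the groups. The ILC2 list summed to 8073 to 8155 CPM with isotype and 8827 to 9022 with CD200-Fc. Of its 15 genes 3 were called higher (*Il2ra*, *Klrg1*, *Ptprc*) and 1 lower (*Il13*), beside 1.48% higher and 0.595% lower among all tested genes. *Gata3* (log2 fold change −0.06) and *Rora* (−0.23) were lower without overlap of the groups and not called. *Id2* (0.1), *Icos* (0.14) and *Areg* (0.25) were higher without overlap and not called. Without overlap, 11.6% of tested genes were higher and 11.2% lower. The 2 analysed genes of the 8 eosinophil markers summed to 4.66 to 5.08 against 5.65 to 10.5 CPM, nearly all from *Ccr3* (log2 fold change 0.78, adjusted p = 0.0866, edgeR). The epithelial and endothelial list, 5 of 6 analysed and none called, summed to 44.3 to 49.5 against 53.1 to 61.7 CPM. The remaining lists overlapped between the groups. These were mast cell and basophil (8 of 8 analysed, 32.5 to 46.9 against 23.3 to 42.4 CPM), macrophage and monocyte (4 of 10, 7.9 to 26.8 against 0 to 34.2), neutrophil (6 of 8, 0.342 to 1.53 against 0.304 to 1.18), dendritic cell (3 of 6, 37.4 to 39.2 against 39.1 to 40.2), T cell (6 of 7, 189 to 209 against 186 to 194) and B cell (2 of 5, 14.5 to 19.3 against 16.5 to 20.1). None of the tested mast cell genes was called, and they split by direction. *Tpsab1* had a log2 fold change of −0.53, against 1.23 for *Cma1*, 0.9 for *Cpa3*, 0.75 for *Fcer1a*, 0.1 for *Mcpt8* and 0.09 for *Tpsb2*. Of the macrophage genes, *Chil3* had −0.76 and *Lyz2* 1.72, neither called. The part of these levels in the results on the receptors was not tested.

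The beta chain genes were higher with CD200-Fc and the analysed alpha chain genes were not called. *Csf2rb* was 1.41-fold and *Csf2rb2* 1.59-fold higher, while *Il3ra* and *Csf2ra* had fold changes of 1.17 and 0.982 that did not pass the test. A gene was called at an adjusted p under 0.05 in edgeR's quasi-likelihood test, with the adjustment over all 14124 genes. By that rule 2 of the 4 tested members were called, both higher, against 2.07% of all tested genes in either direction and 1.48% in the higher direction. DESeq2 gave an adjusted p for *Csf2rb* and *Csf2rb2* only and called both, against 9.88% of the genes to which it gave one. The median log2 fold change of the 4 was 0.36, and that of all tested genes was 0. The study drew both beta chain genes among the receptors higher in these same samples, so their direction here is not independent evidence of it. In such bulk samples, more or fewer cells of a type and more or less RNA per cell cannot be told apart.

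**Figure D1:**
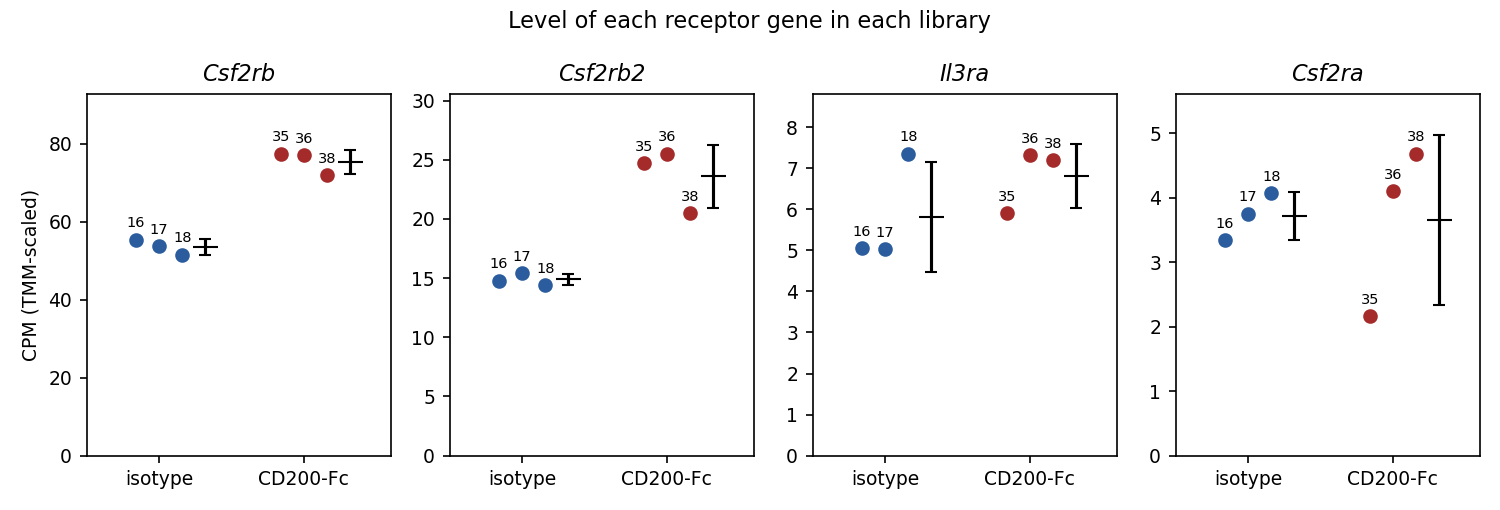
Level of the 4 analysed receptor genes in each of the 6 libraries, in CPM scaled by TMM, with each point a library marked by its replicate number and the black bar and whiskers the mean and SD of a group (n = 3). Each gene has its own axis from 0. *Csf2rb* lay at 51.5 to 55.4 CPM with isotype and 71.9 to 77.4 with CD200-Fc, without overlap, whereas the points of *Il3ra* and *Csf2ra* overlap.

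*Csf2rb* lies on the plus strand of chr15:78325752-78353847 (mm10), and its longest coding transcript has 4900 bases. It had 55.4, 53.7 and 51.5 CPM in isotype replicates 16, 17 and 18 and 77.4, 77.0 and 71.9 CPM in CD200-Fc replicates 35, 36 and 38, from 1036 to 2535 estimated counts per library. All 3 CD200-Fc libraries were above all 3 of isotype, and the gap between the groups was wider than the range within either. The group means were 53.5 ± 1.95 and 75.4 ± 3.07 CPM (SD, n = 3), and the log2 fold change was 0.49 with a standard error of 0.07 (95% interval 0.34 to 0.65, adjusted p = 0.00394, edgeR). The exact two-sided permutation test over the 10 splits of 3 against 3 gave p = 0.1, the smallest it allows. The call was kept without any single library, at log2 fold changes of 0.47 to 0.53 and adjusted p of 0.0117 to 0.0392 in edgeR.

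*Csf2rb2* lies on the minus strand at chr15:78282507-78305721, beside *Csf2rb* in the opposite orientation, with 20030 bases between the genes. It stood at 14.8, 15.4 and 14.4 CPM in isotype replicates 16, 17 and 18 and at 24.7, 25.5 and 20.5 CPM in CD200-Fc replicates 35, 36 and 38. The groups did not overlap, and CD200-Fc replicate 38 was the lowest of its group, as it was for *Csf2rb*. Means were 14.9 ± 0.484 and 23.6 ± 2.68 CPM (SD, n = 3), with a log2 fold change of 0.67, a standard error of 0.12 and a 95% interval of 0.41 to 0.92 (adjusted p = 0.015, edgeR). Of all tested genes, 11.6% were higher with CD200-Fc without overlap of the groups, as both beta chain genes were. The call of *Csf2rb2* rested on single libraries: the adjusted p in edgeR was 0.0553 without isotype replicate 18 (log2 fold change 0.65), 0.0771 without CD200-Fc replicate 35 (0.64) and 0.0666 without CD200-Fc replicate 36 (0.60). It was kept without each of the other 3.

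The beta chain genes are near copies, so the assignment of reads between them is uncertain. Over the coding sequence of the longest transcripts of both genes, with 2688 bases in *Csf2rb* and 2634 in *Csf2rb2*, 2628 bases were aligned, of which 2503 were identical (95.2%) and 125 differed. A window of 50 bases in a *Csf2rb* transcript occurred exactly in *Csf2rb2* in 18.4% of positions, and the share fell to 3.47% for 150 bases. From *Csf2rb2* the shares were 19.0% and 3.59%. No source used here gives the read length. The stretches below show where reads could and could not be told apart. They are given 5′ to 3′ on the coding strand from the GENCODE M21 transcripts of mm10, with positions counted from the first base of the start codon. The first pair is the least alike window of 90 bases, at 308 to 397 in *Csf2rb* and 311 to 400 in *Csf2rb2*, with the 16 differing bases in capitals.

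Csf2rb: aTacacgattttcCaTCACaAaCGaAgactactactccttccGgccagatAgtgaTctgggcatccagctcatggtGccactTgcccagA
Csf2rb2: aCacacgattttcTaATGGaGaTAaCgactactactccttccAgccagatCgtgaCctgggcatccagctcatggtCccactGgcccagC

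The longest run with no difference had 242 bases, at 2083 to 2324 in both coding sequences. It holds the 62-base hairpin of miR-7676 in both genes, at chr15:78348599-78348660 on the plus strand in *Csf2rb* (*Mir7676-2*) and chr15:78284788-78284849 on the minus strand in *Csf2rb2* (*Mir7676-1*), and the hairpin is in capitals.

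Csf2rb and Csf2rb2: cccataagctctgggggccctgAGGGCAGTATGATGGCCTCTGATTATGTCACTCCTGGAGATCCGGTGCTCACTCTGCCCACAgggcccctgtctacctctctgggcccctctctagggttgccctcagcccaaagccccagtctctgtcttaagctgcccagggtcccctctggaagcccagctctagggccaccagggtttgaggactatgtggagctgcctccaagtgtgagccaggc

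Reads from within that run cannot be assigned to either gene by sequence, and the estimates of *Csf2rb* and *Csf2rb2* rest on the differing positions elsewhere. The sum of both genes does not depend on how such reads were shared out. The sum was 70.2, 69.1 and 65.9 CPM with isotype (replicates 16, 17 and 18) and 102, 103 and 92.4 CPM with CD200-Fc (replicates 35, 36 and 38). Every CD200-Fc library was above every isotype library, and the summed log2 fold change was 0.53 with a standard error of 0.07 (95% interval 0.39 to 0.68, adjusted p = 0.00156, edgeR). Without each library in turn it was called in 6 of 6 fits, at log2 fold changes of 0.51 to 0.58.

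Whether the paralogs moved by different amounts was asked by the ratio of *Csf2rb2* to *Csf2rb* within each library. It was 0.268, 0.286 and 0.280 with isotype and 0.319, 0.332 and 0.286 with CD200-Fc, in the same order of replicates. The highest isotype library and CD200-Fc replicate 38 were at about the same ratio, so the groups overlapped. The mean ratio was 0.278 ± 0.00912 with isotype and 0.312 ± 0.0238 with CD200-Fc (SD, n = 3), a log2 difference of 0.16 (exact two-sided permutation p = 0.2). A different change of the paralogs was not shown.

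**Figure D2:**
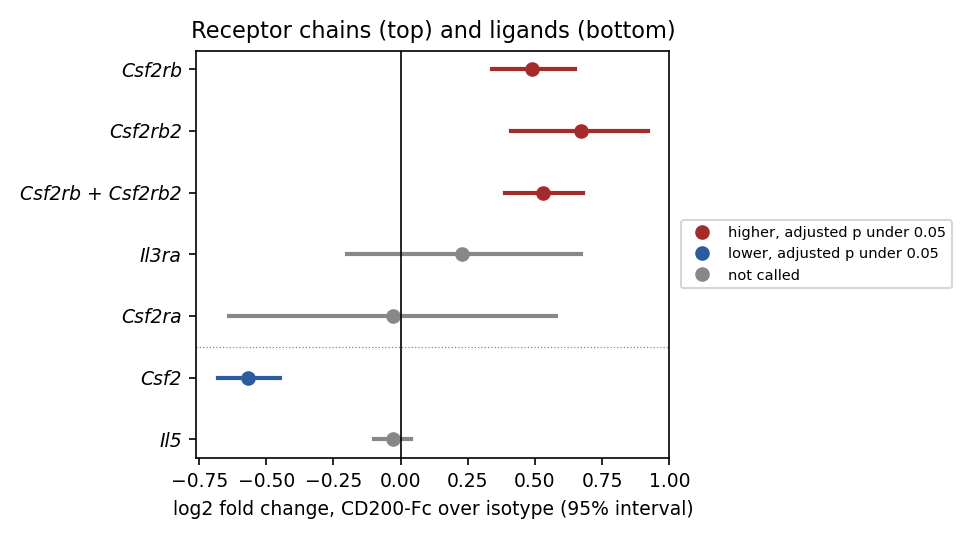
Log2 fold change of CD200-Fc over isotype for the receptor genes, their sum and the ligands, with points for the edgeR estimates and whiskers for the 95% intervals. The intervals of *Csf2rb* (0.34 to 0.65) and *Csf2rb2* (0.41 to 0.92) lie above 0 and overlap, and those of *Il3ra* and *Csf2ra* include 0.

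The alpha chains were measured at lower counts. *Il3ra*, the IL-3 binding chain, lies on the plus strand at chr14:14346275-14356011 and had 102 to 241 counts per library. It stood at 5.05, 5.03 and 7.35 CPM with isotype and 5.90, 7.32 and 7.20 CPM with CD200-Fc, in the same order of replicates. The highest value belonged to isotype replicate 18, and the groups overlapped. The log2 fold change was 0.23 with a standard error of 0.20 and a 95% interval of −0.20 to 0.67 (adjusted p = 0.617, edgeR), so a change of up to 1.59-fold is within the interval. Without isotype replicate 18 the log2 fold change was 0.44 and was not called. The antisense gene *Gm48860* overlaps *Il3ra* over 990 bases, and no source used here says whether reads were counted by strand.

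*Csf2ra*, the GM-CSF binding chain, lies on the minus strand at chr19:61223957-61228429 and had 55 to 135 counts per library. Its values were 3.34, 3.75 and 4.07 CPM with isotype and 2.16, 4.10 and 4.68 CPM with CD200-Fc. CD200-Fc replicates 35 and 38 were the lowest and the highest of all 6 libraries, so that the groups overlapped and the CD200-Fc group spanned the isotype group. The log2 fold change was −0.03 with a standard error of 0.28 and a 95% interval of −0.64 to 0.58 (adjusted p = 0.977, edgeR). Its sign was not fixed: it was 0.24 without CD200-Fc replicate 35 and −0.23 without CD200-Fc replicate 38, and was called in neither. At this depth the interval of *Csf2ra* includes a fold change of the size seen for *Csf2rb*.

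Levels were compared between the receptor genes per kilobase of the longest coding transcript. *Csf2rb* was highest, at 10.9 ± 0.398 CPM per kb with isotype and 15.4 ± 0.627 with CD200-Fc (SD, n = 3), and 63.1% of tested genes lay below it over all libraries. *Csf2rb2* followed at 3.14 ± 0.102 and 4.97 ± 0.565 CPM per kb, *Il3ra* at 2.51 ± 0.578 and 2.94 ± 0.341, and *Csf2ra* at 2.01 ± 0.200 and 1.97 ± 0.712. *Csf2rb* was above the other 3 in every library. With isotype, *Il3ra* overlapped both *Csf2ra* and *Csf2rb2*, and isotype replicate 18 had 3.04 for *Csf2rb2* and 3.18 for *Il3ra*. With CD200-Fc the 3 genes kept apart, though *Il3ra* and *Csf2ra* only narrowly, with 2.55 as the lowest value of *Il3ra* and 2.53 as the highest of *Csf2ra*.

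Each alpha chain was also set against the summed beta chains, per kilobase. For *Csf2ra* the ratio was 0.125, 0.143 and 0.163 with isotype and 0.0557, 0.105 and 0.133 with CD200-Fc, with means of 0.143 ± 0.0188 and 0.0980 ± 0.0392 (SD, n = 3, exact two-sided permutation p = 0.2). For *Il3ra* it was 0.151, 0.153 and 0.235 against 0.121, 0.150 and 0.164 (p = 0.4 by the same exact permutation test). Both ratios overlapped between the groups, so a shift in the balance of alpha to beta chain RNA was not shown.

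The promoters are shown for *Csf2rb2*, the called beta chain gene with an entry in the RefSeq promoter table (GRCm38.p6, 250 bases before to 50 after the start), and for *Il3ra*, which was not called. *Csf2rb* is the member without an entry. Both strands were searched for motifs of factors known from lymphoid and myeloid gene control, STAT5 (TTCNNNGAA), PU.1 (GAGGAAGT), C/EBP (TTGCNNAAT), the GATA family (AGATAA) and RUNX (TGTGGT), and matches are in capitals. Positions count the first base of a match from the start base as 0, and no 2 matches overlap.

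Csf2rb2, chr15:78305672-78305971, minus strand: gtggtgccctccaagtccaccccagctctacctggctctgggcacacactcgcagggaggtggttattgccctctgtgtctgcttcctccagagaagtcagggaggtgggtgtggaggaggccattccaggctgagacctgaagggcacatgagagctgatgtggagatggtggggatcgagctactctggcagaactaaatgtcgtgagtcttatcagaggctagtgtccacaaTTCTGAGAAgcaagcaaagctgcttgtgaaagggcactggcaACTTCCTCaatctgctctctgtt
Il3ra, chr14:14346245-14346544, plus strand: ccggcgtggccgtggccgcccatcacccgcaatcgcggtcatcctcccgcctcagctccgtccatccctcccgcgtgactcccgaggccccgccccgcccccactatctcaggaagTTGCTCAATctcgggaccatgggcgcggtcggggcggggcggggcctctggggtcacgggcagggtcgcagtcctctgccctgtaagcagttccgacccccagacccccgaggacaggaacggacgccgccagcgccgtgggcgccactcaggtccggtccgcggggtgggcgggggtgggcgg

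The *Csf2rb2* window held a STAT5 motif at −15 and a PU.1 motif on the reverse strand at 27. Over all 32851 promoters, 8.3% held the STAT5 motif and 3.2% the PU.1 motif. The *Il3ra* window held a C/EBP motif at −134, present in 2.4% of promoters, and that of *Il5ra* a GATA motif at −74, present in 11.2%. The RefSeq start of *Il3ra* lies inside the gene as annotated from chr14:14346275. Most of its window, and the C/EBP motif with it, thus lies within that gene and not upstream of it. The *Csf2ra* window held none of the 5 motifs, and RUNX, present in 16.8% of promoters, was in none of the 4 windows. A match of letters is a description of the sequence, and binding was not measured. Transcripts of the factors known for these motifs in myeloid cells were low or not called. *Spi1*, which encodes PU.1, had 0 to 20 counts per library, *Cebpa* 0 to 5, *Gata1* 0 to 16 and *Gata2* 1 to 13, none tested. Other factors of these families were well measured, with 871 to 1626 counts for *Cebpb* and 716 to 1206 for *Runx1*. *Gata3*, of the GATA family, stood at 1055 to 1188 CPM. Of 11 listed myeloid transcription factors 9 had counts and 5 were tested, with a median log2 fold change of 0.07. Of these 5, 0 were called by edgeR and 0 had an unadjusted p under 0.05, beside 2.07% and 17.1% of all tested genes. DESeq2 called 0 of the 3 to which it gave an adjusted p, beside 9.88%. So few genes cannot be told apart from those shares. The smallest p was that of *Cebpd*, at 1.79 to 3.42 CPM (log2 fold change 0.53, adjusted p = 0.375, edgeR), followed by *Cebpb* (−0.11, adjusted p = 0.652) and *Irf8* (−0.07, adjusted p = 0.747). *Cebpd* was higher with CD200-Fc without overlap of the groups, as were 11.6% of all tested genes.

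No other tested gene near the beta chain genes was called. Within 300 kb of either start, 15 other genes had counts and 10 were tested, with log2 fold changes from −0.35 (*Gm36738*) to 0.31 (*Mpst*). Of these 10, 0 were called by edgeR and 0 had an unadjusted p under 0.05, beside 2.07% and 17.1% of all tested genes. So few genes cannot set this region apart from those shares. *Ncf4*, the NADPH oxidase subunit gene beyond *Csf2rb2*, had 339 ± 22.1 and 339 ± 9.95 CPM (SD, n = 3), a log2 fold change of 0. *Il2rb*, the beta chain of the IL-2 receptor and 153.5 kb from the start of *Csf2rb*, had 466 ± 12.8 CPM with isotype and 435 ± 8.55 with CD200-Fc, without overlap but with a log2 fold change of −0.10 and an adjusted p of 0.294 in edgeR. *Gm36738* was also lower without overlap of the groups, as were 11.2% of all tested genes. *Rac2* and *Cyth4*, blood cell genes in the same interval, had log2 fold changes of −0.02 and −0.01. *Ift27* (−0.12), *Tst* (−0.15), *Kctd17* (−0.05) and *C1qtnf6* (−0.17) were the others tested.

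**Figure D3:**
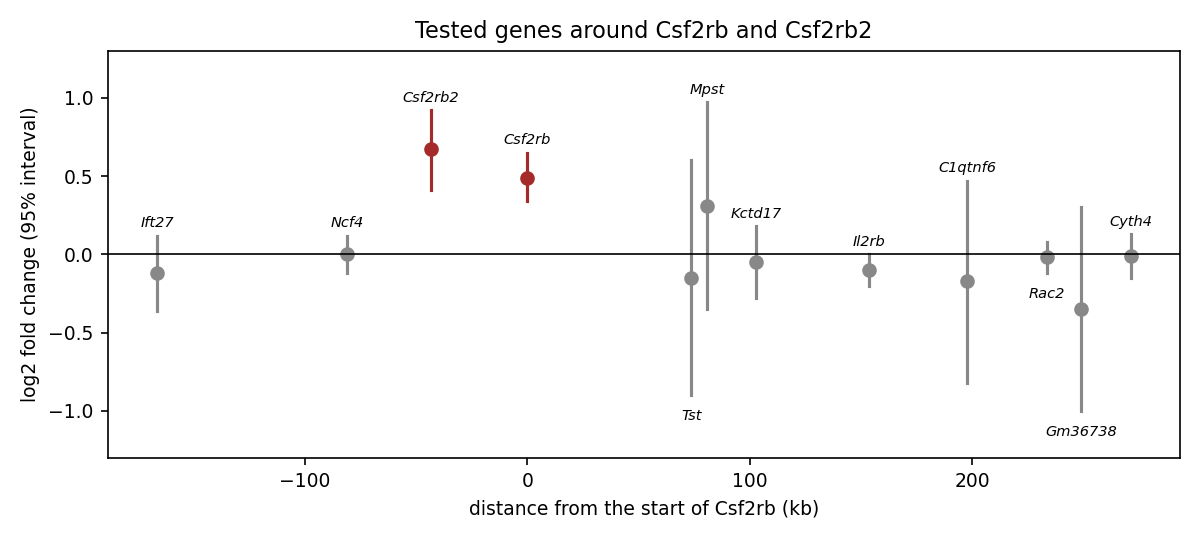
Log2 fold change of CD200-Fc over isotype for tested genes around *Csf2rb* on chromosome 15, against distance from the *Csf2rb* start in kilobases, with edgeR estimates as points and 95% intervals as whiskers. *Csf2rb* and *Csf2rb2* stand at 0.49 and 0.67, and the other 10 tested genes range from −0.35 to 0.31.

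Of the ligand genes, *Csf2* was lower with CD200-Fc and *Il5* was not called. The study reported both as downregulated in these same samples, by its own test. The direction of *Csf2* here is thus not independent evidence of it, and for *Il5* the call differs from that report. *Csf2*, which encodes GM-CSF, fell from 345, 370 and 345 CPM with isotype to 247, 231 and 238 CPM with CD200-Fc, in the same order of replicates. The groups did not overlap, as was so for 11.2% of tested genes in the lower direction, and 0.595% of tested genes were called lower. The log2 fold change was −0.57 with a standard error of 0.05 (95% interval −0.68 to −0.45, adjusted p = 0.000175, edgeR), and it was called without each library in turn. *Il5* was among the most abundant transcripts, with 4722, 4863 and 4683 CPM against 4774, 4613 and 4631 CPM. The groups overlapped, and the log2 fold change was −0.03 with a 95% interval of −0.10 to 0.04 (adjusted p = 0.753, edgeR). On the signal normalized by the authors, *Il5* was 4310, 4485 and 4280 with isotype and 4279, 4160 and 4189 with CD200-Fc, where the groups did not overlap and CD200-Fc was lower, and limma-trend on that signal gave a log2 fold change of −0.05 that was not called (adjusted p = 0.613). Other scalings gave −0.05 to −0.02, and the sign turned only with length and GC offsets (0.02). *Il3* had 0 counts in all 6 libraries, which allows up to 0.0900 to 0.149 CPM of the unscaled total per library, for counting error only.

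Genes that carry or limit the signal of the beta chain were mostly not called. Of 26 listed, 25 were tested, 1 was higher, 1 lower and 23 not called, with a median log2 fold change of 0.06. The share called among all tested genes was 2.07%. At an unadjusted p under 0.05, 9 were higher and 2 lower, against 17.1% of all tested genes in either direction, and DESeq2 called 7 of the 24 with an adjusted p, against 9.88%. *Ptpn6*, the phosphatase SHP-1 that dampens cytokine receptor signals, rose from 55.9 ± 5.19 to 72.4 ± 1.04 CPM (SD, n = 3, log2 fold change 0.37, adjusted p = 0.029, edgeR). *Rack1*, a ribosomal scaffold protein that also binds beta chains, fell from 662 ± 19.2 to 571 ± 18.2 CPM (log2 fold change −0.21, adjusted p = 0.0291, edgeR). Both were called only without isotype replicate 16 when libraries were left out in turn, with adjusted p of up to 0.109 and 0.125 without each of the other 5, and *Rack1* was not called with length and GC offsets (adjusted p = 0.111, edgeR). The other signalling genes that DESeq2 called were *Sdcbp*, *Jak1*, *Pik3cd*, *Pik3cb* and *Pik3r1*, at adjusted p of 0.00652 to 0.0488. Their log2 fold changes in edgeR were 0.18, 0.19, 0.19, 0.38 and 0.26, with adjusted p of 0.0655 to 0.139. Without overlap of the groups, 7 signalling genes were higher and 2 lower, against 11.6% and 11.2% of all tested genes. *Jak2*, the kinase held by the beta chain, had 111 ± 7.66 and 126 ± 5.6 CPM and a log2 fold change of 0.19 (adjusted p = 0.153, edgeR). *Stat5a* and *Stat5b* had log2 fold changes of 0.02 and 0.07 and were not called.

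Genes known as targets of STAT5 were called in both directions. Since IL-2 and IL-7 in the culture also act through STAT5, these genes do not read the common beta chain alone. Of 15 listed, 14 were tested, 1 was higher, 2 were lower and 11 were not called, beside 1.48% higher and 0.595% lower among all tested genes, with a median log2 fold change of −0.08. *Socs3*, a feedback inhibitor that STAT3 also induces, rose from 171, 160 and 184 CPM to 250, 257 and 281 CPM (log2 fold change 0.62, standard error 0.07, adjusted p = 0.000332, edgeR), without overlap, and kept its call without each library. *Bcl2l1*, which encodes the survival protein BCL-XL, fell from 88.2 ± 3.41 to 66.8 ± 5.03 CPM (SD, n = 3, log2 fold change −0.40, adjusted p = 0.0172, edgeR). Its call was lost without isotype replicate 18, CD200-Fc replicate 35 or CD200-Fc replicate 36, at adjusted p of up to 0.0725. *Ccnd2*, cyclin D2, fell from 352 ± 15.7 to 301 ± 7.85 CPM (log2 fold change −0.23, adjusted p = 0.0386, edgeR) and was called only without isotype replicate 16 of the 6 fits with 1 library left out, with adjusted p of up to 0.176. *Cish*, a feedback inhibitor often read as a STAT5 target, had a log2 fold change of −0.11 (adjusted p = 0.281, edgeR).

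The list of other receptors of the class I cytokine family also holds chains that pair with them, such as *Il2ra*. Both of its called genes encode chains of the IL-2 receptor. Of 31 listed, 15 were tested, 1 was higher, 1 lower and 13 not called, beside 2.07% called among all tested genes, with a median log2 fold change of 0.03. *Il2ra*, the high-affinity chain of the IL-2 receptor, rose from 2113 ± 81.9 to 2471 ± 34.3 CPM (SD, n = 3, log2 fold change 0.23, adjusted p = 0.0119, edgeR), and its call was lost without isotype replicate 18 or CD200-Fc replicate 35, at adjusted p of up to 0.0725. *Il2rg*, the common gamma chain, fell from 668 ± 26.7 to 568 ± 5.96 CPM (log2 fold change −0.23, adjusted p = 0.0204, edgeR), and its call was lost without isotype replicate 18 or any CD200-Fc replicate, at adjusted p of up to 0.0986. *Il7r* and *Il4ra* had log2 fold changes of 0.09 and 0.05 and were not called.

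**Figure D4:**
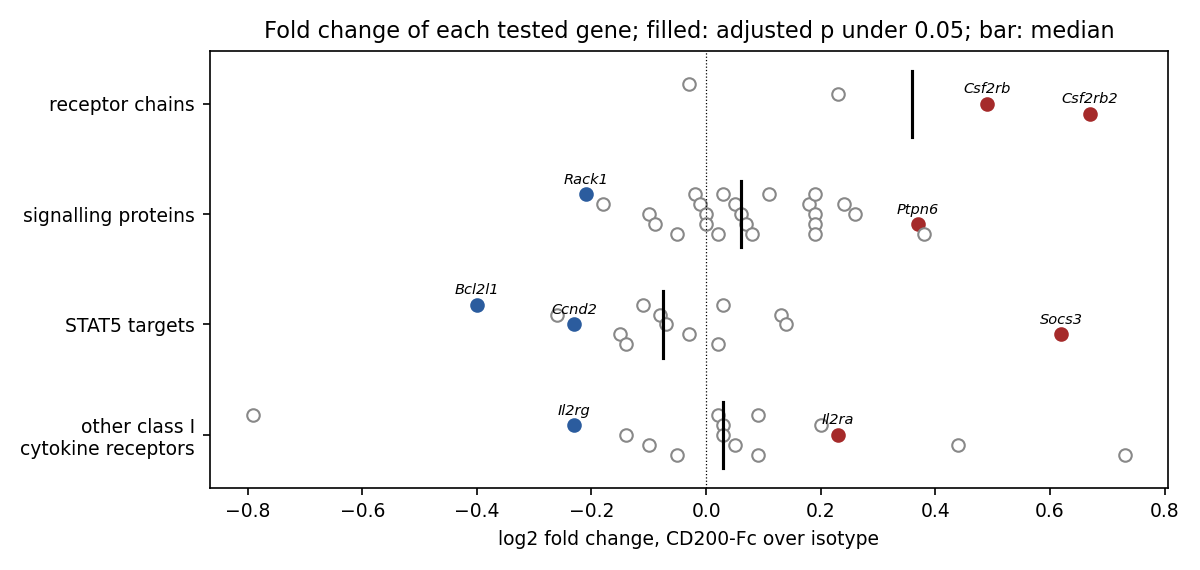
Log2 fold change of CD200-Fc over isotype by edgeR for the tested receptor chains, signalling proteins, STAT5 targets and other class I cytokine receptors. The last list includes chains that pair with such receptors. Each gene is a circle, filled and named where called, with a bar at the median of each list. Of 25 signalling genes 1 is called higher and 1 lower, of 14 STAT5 targets 1 and 2, and of 15 in the last list 1 and 1.

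The profile of *Csf2rb* over the 6 libraries was compared with that of the 10180 genes with log2 CPM averaging 2 or more, by the root mean square difference of log2 CPM centred on each gene's mean. The median difference over these genes was 0.275. The nearest were *Insig1* (0.022), which holds back sterol synthesis, *Ifitm3* (0.0474), an interferon-induced antiviral membrane protein, *Pglyrp2* (0.051), which cleaves bacterial peptidoglycan, *P2ry10* (0.0526), a lysophospholipid receptor, and *Slc2a3* (0.0611), the glucose transporter GLUT3. *Insig1* had 89.8 ± 2.91 CPM with isotype and 126 ± 2.68 with CD200-Fc (SD, n = 3, log2 fold change 0.48, adjusted p = 0.00112, edgeR). *Csf2rb2* ranked 80th, at 0.107. With *Csf2rb2* as the reference, *Csf2rb* ranked 4th at that same difference, where the median over the genes was 0.36. The measure includes the difference between the groups, and the genes share their 6 libraries.

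**Figure D5:**
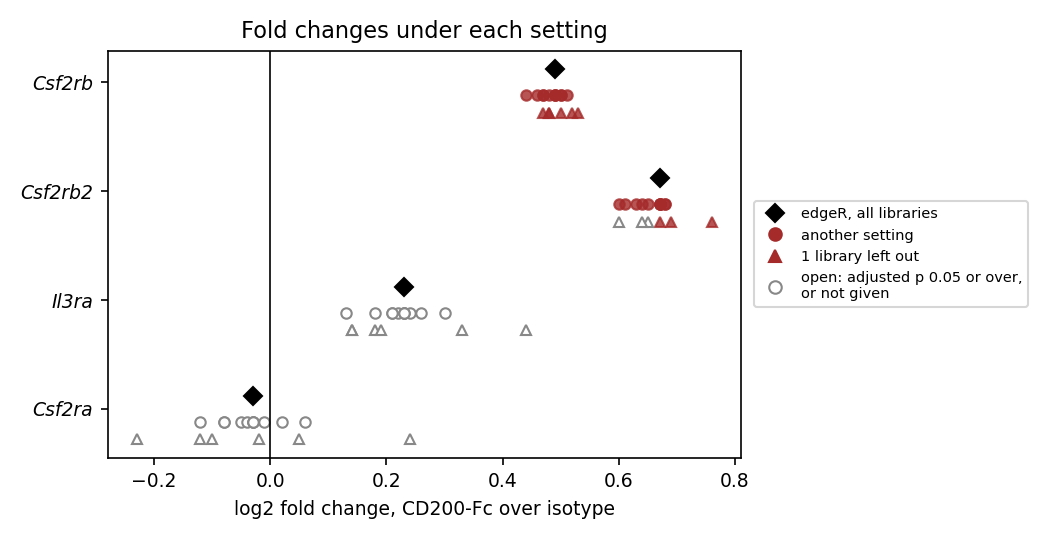
Log2 fold change of the 4 analysed receptor genes with black diamonds for edgeR on all libraries, circles for other settings and triangles for fits without 1 library, filled red where the gene was called. *Csf2rb* is called throughout at 0.44 to 0.53, *Csf2rb2* lies at 0.60 to 0.76 with 3 settings that each lack 1 library not called, and *Il3ra* and *Csf2ra* are called in none, with no adjusted p from DESeq2.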

How the data were processed

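RNA-sequencing of 6 samples was analysed, 3 per group as the labels give them. The authors deposited expected counts for 22554 genes, which they made with bcl2fastq 2.17.1.14, STAR 2.5.3a on mm10 and expectation maximization in Partek and left unnormalized. No source used here gives the annotation release. The normalized signal that the authors deposited for 17194 genes equals, from its values, the expected count plus 1, times a factor for each sample. The study's own test, a lognormal model in Partek, was not available here.

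Counts were rounded, filtered by filterByExpr to 14124 genes, scaled by TMM and tested with edgeR 4.0.16 (quasi-likelihood F test, R 4.3.3), with Benjamini-Hochberg adjustment over all of them and calls at an adjusted p under 0.05. The common biological coefficient of variation was 10.8%. Depth ran from 20096555 to 33321709 expected counts per library, and intervals for counts of 0 (3 counts) cover counting error only. Single ratios were compared by exact permutation over samples (Python 3.11.15). Alternatives were upper quartile and total count scaling, DESeq2 1.42.0, limma 3.58.1 (voom, and trend on the signal at pseudocounts of 1 and 0.1), unrounded counts, no filter, a filter at 10 counts in all samples, offsets for length and GC content, each library left out and, added after seeing the data, thinning to the smallest library. Levels per kilobase used the longest coding transcript of GENCODE M21, and coding sequences were aligned with Biopython 1.88.

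The members and gene lists were chosen with earlier results of these data known. Named were all members and ligands, of each list the called genes (up to 6) or otherwise those of smallest p, genes within 300 kb of the beta chain genes, and the 5 genes most like *Csf2rb*. Outside that rule, the signalling genes called by DESeq2 were named. So were *Jak2*, *Stat5a*, *Stat5b*, *Cish*, *Il7r* and *Il4ra*, which were not called and not chosen by p. Neighbours with too few counts to test are given only as a count.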

Additional observations from a re-analysis of the deposited data

How the results depend on the processing

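Under the 11 alternatives other than leaving out a library, *Csf2rb* and *Csf2rb2* were called each time, at log2 fold changes of 0.44 to 0.51 and 0.60 to 0.68, and *Il3ra* (0.13 to 0.30) and *Csf2ra* (−0.12 to 0.06) were called in none, with no adjusted p from DESeq2. The sign of *Csf2ra*, −0.03 with all libraries, turned with length and GC offsets (0.06), after thinning (0.02), without isotype replicate 18 (0.05) and without CD200-Fc replicate 35 (0.24). Without each library in turn, log2 fold changes were 0.47 to 0.53 for *Csf2rb*, 0.60 to 0.76 for *Csf2rb2*, 0.14 to 0.44 for *Il3ra*, −0.23 to 0.24 for *Csf2ra* and 0.51 to 0.58 for the summed beta chains, and the log2 difference of the paralog ratio was 0.12 to 0.23 and 0.16 on the normalized signal. These fits called 1 to 2 receptor genes (2 with all libraries), 0 to 3 signalling genes (2) and 1 to 3 STAT5 targets (3). They called 0 to 2 genes (2) of the list of other class I receptors and the chains that pair with them. DESeq2 called 7 signalling genes, and length and GC offsets left 1. The cause of these differences was not tested.

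Over all genes, edgeR called 293 (209 higher, 84 lower), DESeq2 881 of 8920 and the filter of at least 10 counts in every sample 450, and leaving out a library gave 44 to 312. The split was 203 higher and 163 lower by limma-trend at a pseudocount of 1, and 185 and 144 at 0.1. No paired analysis was possible because the groups share no replicate number. *Il5ra* gave no value under any setting. Counts of *Csf2ra* were low, at 55 to 135 per library.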
